A study of Rattus norvegicus with 2 samples.

Results

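The cells described here are border-associated macrophages with little Cd163, Clec10a and Ccl24, found in 2 single-cell libraries of cells that a flow sort had taken as microglia from fetal male rat hippocampus. They were chosen cell by cell from their own unique molecular identifiers (UMIs, 1 per captured RNA molecule). A cell was a member if it had at least 200 genes and at most 20% of its UMIs from mitochondrially encoded genes. Mrc1, Pf4, Ms4a7 and Stab1 together had to reach 0.15% of its UMIs, called the macrophage share below, with at least 1 UMI of Ms4a7 or Stab1. It could hold at most 2 UMIs of Cd163, Clec10a and Ccl24 together and fewer than 20 of S100a8 and S100a9. The rule found 771 of the 12243 cells that passed the filters on genes and mitochondrial UMIs.

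Both libraries came from embryos of gestational day 20, one with prenatal dexamethasone exposure and one without. Each library pooled 7 male embryos, and each group is 1 library. The strain, the dose and days of dexamethasone and the antibodies of the sort are not given in the sources used here. The hippocampus was dissociated mechanically, and RNA was captured in droplets. With 1 library per group there was no replicate, so no p-value is given, and the 95% intervals below cover counting error only. A difference between the libraries can belong to the exposure, to the pooled embryos or to the preparation of each suspension, and these cannot be told apart.

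In all, 42611920 UMIs in 4328 barcodes were deposited for dexamethasone and 69940778 in 8342 for control. Only 5 barcodes occurred in both libraries, and 1 of them was a member, in the dexamethasone library. The 306 dexamethasone members had a median depth of 8424 UMIs and the 465 control members one of 6173. Mitochondrially encoded genes took 3.60% of the members' summed UMIs for dexamethasone and 6.65% for control, and ribosomal protein genes took 18.6% and 15.8%. Ratios of named genes and list medians were also computed from cells thinned to an equal depth and with a stricter mitochondrial limit. They were further computed with CPM scaled without mitochondrial and ribosomal protein UMIs. The results that changed sign under such alternatives are given in the last section. The part of depth, mitochondrial and ribosomal UMIs in the library differences below was not tested further.

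Border-associated macrophages live in the meninges, the choroid plexus and the spaces around brain vessels. They share an origin in the yolk sac with microglia, the macrophages of the brain tissue itself. They take up proteins and debris from fluid through scavenger and mannose receptors, and their identity rests on macrophage factors such as PU.1 and MAF. Mrc1 encodes the mannose receptor CD206, Pf4 platelet factor 4, a chemokine, Ms4a7 a membrane protein of tetraspan type and Stab1 the scavenger receptor stabilin-1. Cd163 encodes the receptor for haemoglobin bound to haptoglobin, Clec10a a lectin for galactose-type sugars and Ccl24 an eosinophil-attracting chemokine. Glucocorticoids such as dexamethasone act through the glucocorticoid receptor, a transcription factor that macrophages carry.

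The 250 bases upstream of the annotated start are shown for 3 genes of the macrophage share and for F13a1, since the share defines the cells and F13a1 carried the clearest difference between the libraries. The windows come from the RefSeq table of promoters on build GRCr8, while the deposited counts rest on Rnor_6.0. Of 11 genes looked up by symbol 9 matched; Pf4 and Clec10a were not among them. Each window is written 5′ to 3′ on the strand of its gene. Capitals mark matches on either strand to GAGGAA, the core bound by PU.1, and to TGCTGA, the core of MAF sites.
Mrc1 (chr17:82157475-82157724, + strand): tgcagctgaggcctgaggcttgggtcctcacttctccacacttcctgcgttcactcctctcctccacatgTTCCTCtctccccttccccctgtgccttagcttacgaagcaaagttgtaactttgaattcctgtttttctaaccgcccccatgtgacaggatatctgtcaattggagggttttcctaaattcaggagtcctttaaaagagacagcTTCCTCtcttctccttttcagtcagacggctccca
Ms4a7 (chr1:217409644-217409893, - strand): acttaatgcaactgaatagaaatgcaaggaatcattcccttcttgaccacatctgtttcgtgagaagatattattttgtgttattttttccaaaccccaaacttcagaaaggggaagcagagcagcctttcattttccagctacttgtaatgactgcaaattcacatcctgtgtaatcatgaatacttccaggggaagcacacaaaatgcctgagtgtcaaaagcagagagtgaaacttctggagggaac
Stab1 (chr16:6367360-6367609, - strand): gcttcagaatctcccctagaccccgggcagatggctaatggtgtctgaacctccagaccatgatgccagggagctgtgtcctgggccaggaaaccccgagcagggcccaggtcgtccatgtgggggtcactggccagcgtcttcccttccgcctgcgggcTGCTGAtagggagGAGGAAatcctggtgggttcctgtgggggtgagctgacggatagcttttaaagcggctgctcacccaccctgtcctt
F13a1 (chr17:28020947-28021196, + strand): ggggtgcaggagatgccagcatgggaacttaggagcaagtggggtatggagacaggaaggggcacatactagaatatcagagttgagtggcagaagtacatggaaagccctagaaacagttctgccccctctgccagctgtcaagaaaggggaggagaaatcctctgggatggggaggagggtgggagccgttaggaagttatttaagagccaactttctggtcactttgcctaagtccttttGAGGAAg
Mrc1 had 2 matches to the PU.1 core, both on the opposite strand, and Stab1 and F13a1 had 1 each. Stab1 also had 1 match to the MAF core, which lay apart from its PU.1 match. The 2 motifs can share bases where TGCTGA runs into GAGGAA, and they did not do so in these 4 windows. The Ms4a7 window held neither. None of the 4 windows held AGAACA, a half-site of the glucocorticoid receptor. Of 33469 windows of the same length in the table, 23.34% held GAGGAA, 15.14% TGCTGA and 17.52% AGAACA. A match describes these letters only.

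The macrophage share had no gap at its threshold. In the dexamethasone library members ran from 0.15% to 0.935% with a median of 0.252%, and in the control library from 0.15% to 7.41% with a median of 0.279%. The plot of the macrophage share shows the cell numbers falling from microglia towards high shares without a break at 0.15%, apart from a step where the bins become wider. Just inside the threshold, at shares of 0.15 to 0.2%, Mrc1 stood at 1002 CPM (counts of a gene scaled to a total of 1e6 summed UMIs) in the 99 members of the dexamethasone library and 1176 CPM in the 111 of the control library. Just outside, at 0.1 to 0.15%, it stood at 724 and 792 CPM. Igfbp3, which the rule did not use, stood at 134 and 139.5 CPM inside and 62.6 and 106 CPM outside. The levels changed in steps and not from present to absent across this threshold, so the rule cuts a continuous range.

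**Figure D1:**
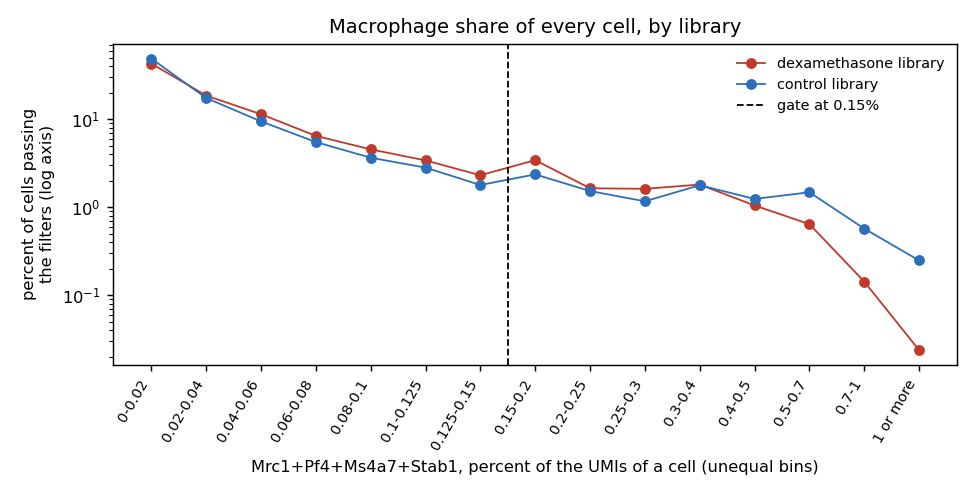
Percent of the cells of each library (log axis) in bins of the macrophage share (x axis, percent of the UMIs of a cell, bins of unequal width); points are joined by library and the dashed line is the threshold of 0.15%. The control library has the larger percent of cells in the bins above 0.4%, and the dexamethasone library in the bins from 0.02% to 0.3%.

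The other threshold, on Cd163, Clec10a and Ccl24, also cut a range. Members with 2 UMIs of these genes had 560.2 CPM of Colec12, a scavenger collectin, in 28 cells of the dexamethasone library and 743 CPM in 28 cells of the control library. Cells with 3 UMIs, just outside, had 786 CPM in 13 cells and 798 CPM in 22 cells. Most members had none of the 3 genes: 73.2% (67.9 to 78.1, exact Clopper-Pearson interval) for dexamethasone and 78.1% (74.0 to 81.7) for control.

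Members were 7.29% of the dexamethasone library (306 of 4199 cells, interval 6.52 to 8.12%) and 5.78% of the control library (465 of 8044, 5.28 to 6.31%). Macrophages with the same gate but 3 or more UMIs of Cd163, Clec10a and Ccl24, called Cd163-high below, went the other way, at 1.38% (58 cells, 1.05 to 1.78%) and 2.51% (202 cells, 2.18 to 2.88%). Members thus made up 84.1% (79.9 to 87.7) of both macrophage classes for dexamethasone and 69.7% (66.1 to 73.2) for control. The direction of the members' share depended on the threshold. At a macrophage share of at least 0.3%, members were 2.45% of the dexamethasone library and 2.65% of the control library, 103 and 213 cells. The sort, whose gates are not given, can also set these shares.

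The members were checked against the 6 markers of their label. Igfbp3, an insulin-like growth factor binding protein, and Colec12 were not part of the rule. Igfbp3 stood at 257 CPM in dexamethasone members and 310.1 CPM in control members, against 10.99 and 10.1 CPM in microglia, which were gated by at least 0.8% of UMIs from C1qa, C1qb and C1qc and a macrophage share under 0.15%. Colec12 stood at 388 CPM in dexamethasone members and 556 CPM in control members, against 29.8 and 25.6 CPM in microglia. Both markers were far above microglia in each library. The 4 genes of the macrophage share had to be high: Mrc1 was at 1590.5 and 1945 CPM, Pf4 at 741 and 731 CPM, Ms4a7 at 210.3 and 251 CPM and Stab1 at 155 and 167 CPM in the dexamethasone and control members. No gene of the marker list went against the label, and where in the brain the cells sat was not measured.

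Members also carried microglial genes. The share of members that met the C1q threshold of the microglia gate was 99.3% for dexamethasone and 98.3% for control. Sall1, a transcription factor that defines microglia, stood at 70.2 and 70.9 CPM in members, between 192 and 203 CPM in microglia and 27.3 and 35.2 CPM in Cd163-high macrophages. P2ry12, a purinergic receptor of microglia, had the same order, with 116 and 129 CPM in members, 172 and 218 CPM in microglia and 51.6 and 54.3 CPM in Cd163-high macrophages. For 5 microglial genes together (P2ry12, Tmem119, Sall1, P2ry13 and Siglech), 19.0% of members for dexamethasone and 16.3% for control reached the median of microglia. No doublets were removed. An alternative left out the members with the highest Scrublet doublet scores, and no ratio or list median was counted as changing sign under it. The part of doublets in these levels was not tested further.

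**Figure D2:**
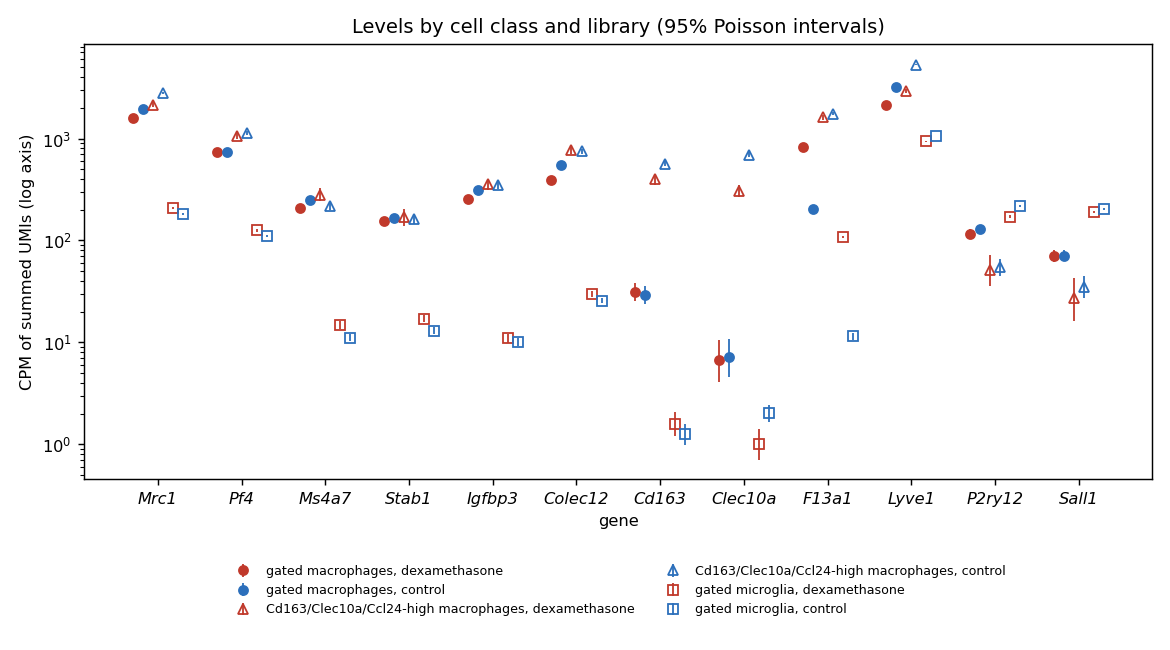
Level of 12 genes (CPM of summed UMIs, log axis) in the gated macrophages (filled circles), the Cd163-high macrophages (triangles) and microglia (squares) of the dexamethasone (red) and control (blue) library, with 95% Poisson intervals. The filled circles lie above the squares from Mrc1 to Colec12, between triangles and squares for Sall1 and P2ry12, and apart from each other for F13a1.

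The members differed among themselves in how much of each marker they held. The interquartile range of Mrc1 was 8 to 19 UMIs per cell in both libraries, with a median of 12. Lyve1, a receptor for hyaluronan on macrophages along vessels, had medians of 13 and 18 UMIs in dexamethasone and control members. Members with a larger macrophage share held more Igfbp3: in the control library it went from 139.5 CPM under a share of 0.2% to 471 CPM at 0.3% or more. In the dexamethasone library the same step was from 134 to 404 CPM. Cells with 3 or more UMIs of the division genes Mki67, Top2a, Cenpf and Cenpe were 11.8% (8.38 to 15.9) of the dexamethasone members. They were 12.5% (9.61 to 15.8) of the control members, with overlapping intervals. These shares were not taken at equal depth, and the dexamethasone members were the deeper ones.

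Against microglia, 210 of 5640 genes (3.72%) were at least 1.5 times higher in members in both libraries and 201 (3.56%) at least 1.5 times lower. The gate used this contrast, so the values describe the cells and nothing is read from the counts. The border macrophage list had 16 of 25 measured genes higher and 1 lower. Beside the markers, the highest genes included Ccr1, a receptor for inflammatory chemokines, at 74.4 and 89.1 CPM in members and 5.16 and 3.799 CPM in microglia. Nell2, a secreted protein, followed at 130.2 and 179 CPM against 13.6 and 13.8 CPM. Msr1, the class A scavenger receptor, stood at 95.6 and 97.8 CPM against 15.4 and 9.46 CPM. The leukocyte receptor Lilra5, at 62.8 and 61.3 CPM, and Ctla2a, at 71.6 and 55.6 CPM, had log2 ratios over microglia of 2.95 and 3.60 and 2.83 and 3.06 in the dexamethasone and control libraries. Of scavenger and endocytic receptors 11 of 20 were higher and 2 lower, and Lyve1 had log2 ratios of 1.17 and 1.60. That list holds Mrc1 and Stab1, which the rule set high in members, and no count without them is given. Of complement genes 4 of 12 were higher and none lower.

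Genes of cell division were lower in members than in microglia. In the list of G2 and mitosis genes 34 of 36 were at least 1.5 times lower in both libraries and none higher. Prc1, which bundles spindle microtubules, stood at 16.6 and 27.5 CPM in members and 70.9 and 92.8 CPM in microglia, and Ube2c, a ubiquitin-conjugating enzyme of mitosis, at 22.2 and 37.1 CPM and 83.2 and 107 CPM. The levels of both genes rested on few members, with Prc1 found in 11 and 22 and Ube2c found in 16 dexamethasone and 35 control cells. Of microglia identity genes 7 of 23 were lower and none higher, with Sall1 at log2 ratios of -1.45 and -1.52. Also lower were Havcr2, which encodes the checkpoint receptor TIM-3, at -1.34 and -1.77, Rassf4, at -1.79 and -1.64, and Spp1, which encodes osteopontin, at -2.87 and -4.50.

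Against Cd163-high macrophages, 127 of 5687 genes (2.23%) were at least 1.5 times higher in members in both libraries and 92 (1.62%) lower. This contrast, too, was part of the rule. Microglia identity genes had 6 of 22 higher and none lower, among them P2ry12 with log2 ratios of 1.17 and 1.25 and Slc2a5, a fructose transporter, with 1.19 and 1.14. Complement component C2 stood at 77.97 and 97.8 CPM in members and 34.9 and 39.8 CPM in Cd163-high macrophages, and the sorting receptor Sort1 at 64.2 and 79.2 CPM and 33.4 and 39.3 CPM. Border macrophage genes had 1 of 27 higher and 7 lower. That list holds Cd163, Clec10a and Ccl24, which the rule kept low in members, and no count without them is given. Beside the genes of the rule, Crip1, a small LIM-domain protein, was lower, at 25.4 and 24.2 CPM against 139.5 and 265 CPM. Pmp22, a membrane protein best known from myelin, was lower too, at 35.3 and 45.4 CPM against 135 and 355 CPM.

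Between the libraries, members were measured for 5371 genes with at least 100 UMIs over both and at least 20 CPM in one. Of these, 141 (2.63%) were at least 1.5 times higher in the dexamethasone library and 157 (2.92%) at least 1.5 times lower, and the median log2 ratio was -0.023. These counts go by the size of the ratio alone. The log2 ratio below is always that of CPM in the dexamethasone over the control library.

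F13a1, the gene of the clot-stabilising transglutaminase factor XIII-A and a marker of border-associated macrophages, was the clearest case. It stood at 819.9 CPM (787 to 854) in the dexamethasone members and 205 CPM (190.1 to 221) in the control members, a log2 ratio of 2.0 (1.88 to 2.12). A UMI of F13a1 was found in 228 of 306 dexamethasone and 169 of 465 control members. Thinned to 3600 UMIs per cell, which left out 9 and 42 shallower members, the shares were 68.01% and 27.4%, against 74.5% and 36.3% without thinning. At the same thinned depth, cells rich in globin UMIs, which should lack the gene, were looked at. They had it in 1 of 93 cells of the dexamethasone library (upper limit 5.85%) and 0 of 126 of the control library (upper limit 2.89%). Their median depths were 18127 and 21479 UMIs before thinning. Both shares lie below those of the members.

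The F13a1 difference was present in every subset of members examined. At macrophage shares under 0.2% the level was 567 and 53.5 CPM in the dexamethasone and control libraries. At shares of 0.2 to 0.3% it was 779 and 253 CPM, and at 0.3% or more 1146 and 276 CPM. Members with no UMI of Cd163, Clec10a and Ccl24 had 759 and 161 CPM. Outside the members the picture differed by class. In microglia F13a1 stood at 108 and 11.5 CPM, a log2 ratio of 3.23, while in Cd163-high macrophages it stood at 1619.9 and 1761 CPM, a log2 ratio of -0.12 (-0.22 to -0.021). The differences between these ratios were not tested. In the control library F13a1 thus ran from microglia over members to Cd163-high macrophages in wide steps, and in the dexamethasone library in narrower ones.

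**Figure D3:**
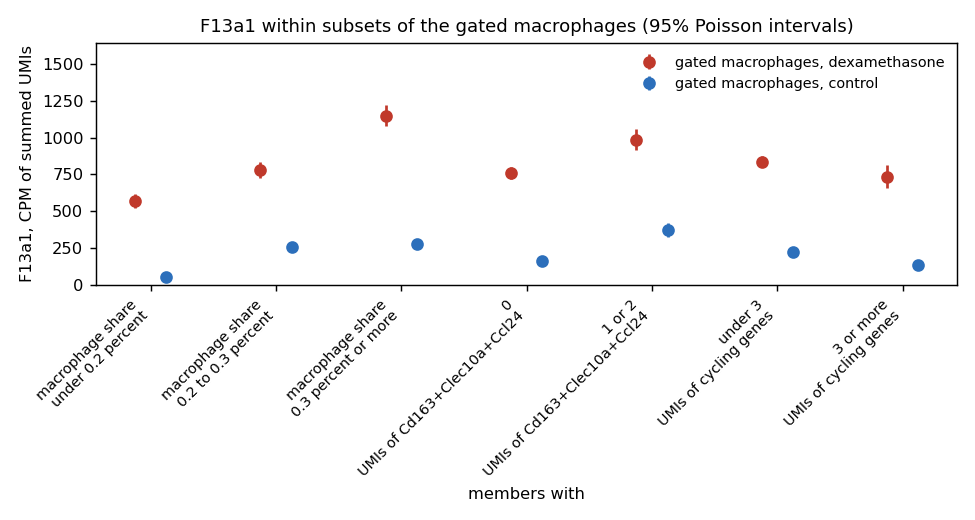
F13a1 level (CPM of summed UMIs, with 95% Poisson intervals) in 7 overlapping subsets of the gated macrophages of the dexamethasone (red) and control (blue) library. In each subset the dexamethasone point lies above the control point and the intervals are apart.

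The other genes with the highest ratios were named by a rule on size. Plac8, a small cysteine-rich protein of monocytes and granulocytes, stood at 188 CPM in dexamethasone members and 37.97 CPM in control members, a log2 ratio of 2.31 (2.03 to 2.60). It was found in 147 of 306 dexamethasone and 61 of 465 control members. Fcgr2b, the inhibitory Fc receptor for IgG, stood at 52.6 and 11.96 CPM, a log2 ratio of 2.14 (1.62 to 2.68), in 85 and 33 cells. Both genes were higher in microglia of the dexamethasone library as well, with log2 ratios of 1.04 and 0.76. Since Plac8 is a monocyte gene, the markers of neutrophils and monocytes were looked at beside it. Of 22 matched markers 12 had no UMI in any member, among them Mpo, Elane and Ngp, and the summed level of the list was 275.5 CPM in the dexamethasone and 129 CPM in the control members. Plac8 itself made up most of the sum for dexamethasone, while for control Itgal, Csf3r and other genes made up most of it. Their part in the result was not tested.

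Tspo, the translocator protein of the outer mitochondrial membrane, stood at 349 and 143 CPM in the dexamethasone and control members, a log2 ratio of 1.29 (1.13 to 1.45). Cideb, a lipid droplet protein, stood at 57.9 and 18.8 CPM, and Ms4a4e, a relative of Ms4a7, at 74.1 and 27.8 CPM. Rgs1, a brake on G protein signalling, stood at 83.6 and 36.8 CPM, and Cpxm1, a carboxypeptidase-like protein, at 119 and 49.6 CPM. Grcc10 stood at 280.5 and 123 CPM. Ppial4d, a cyclophilin A relative whose reads can be shared with its near-identical copies, stood at 132 and 40.7 CPM and is uncertain for that reason. The log2 ratios of these genes in members lay between 1.18 and 1.70, and all 7 had ratios above 0.8 in microglia too.

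**Figure D4:**
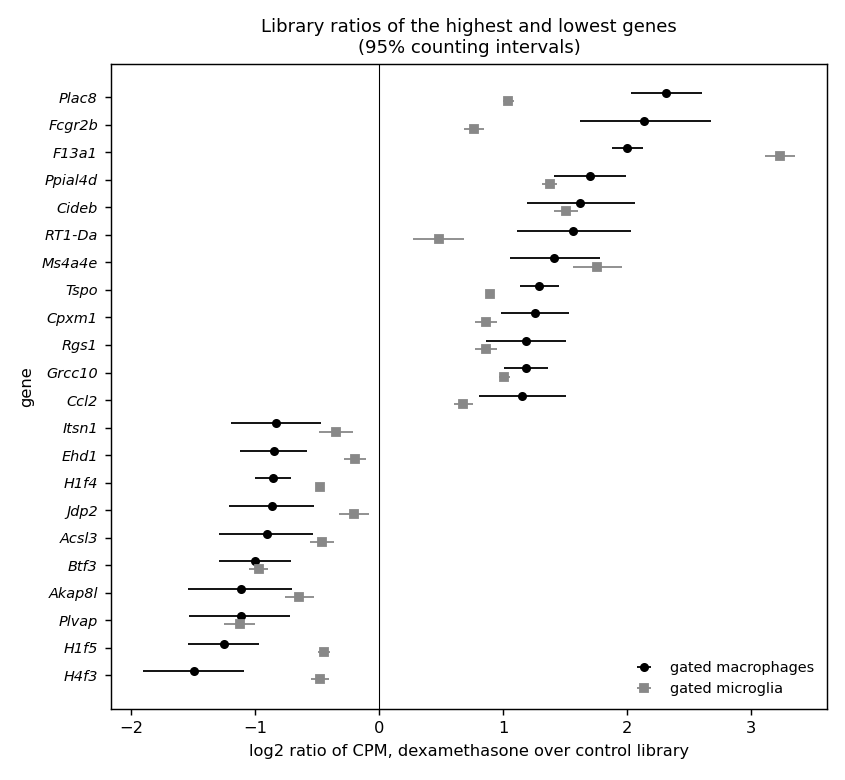
Log2 ratio of CPM, dexamethasone over control library, with 95% counting intervals, for the 12 highest and 10 of the 12 lowest genes that had 100 UMIs or more in all and 50 CPM in one library, in the gated macrophages (circles) and in microglia (squares). Mcpt1l1 and Tpsb2 are left out since 1 cell held nearly all of their UMIs. RT1-Da is shown, though 1 cell held most of its UMIs in the dexamethasone members. Globin genes, with opposite signs in the classes, are left out by the naming rule. Every gene shown has the same sign in both.

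The lowest ratios are given for genes that had 100 UMIs or more in all and 50 CPM in one library, with globin, ribosomal protein, mitochondrial and rule genes and genes with no proper symbol left out. They began with mast cell proteases, and these came from a single cell. Tpsb2 had 0 UMIs in the dexamethasone and 168 in the control members, and Mcpt1l1 1 and 186. One control cell held 350 of the 354 UMIs of both genes in that library. Next came histone genes, which cells express mostly during DNA replication and which form families of near-identical copies. H4f3 stood at 23.99 and 67.3 CPM, with a log2 ratio of -1.49, H1f5 at 49.4 and 118 CPM, with -1.25, and H1f4 at 205 and 369.9 CPM, with -0.85. Plvap, a protein of endothelial and some macrophage membranes, stood at 25.4 and 55.02 CPM, a log2 ratio of -1.11 (-1.53 to -0.71). The endocytosis genes Ehd1 and Itsn1 stood at 59.3 and 107 CPM and at 33.9 and 60.1 CPM, with log2 ratios of -0.85 and -0.83. Btf3, Acsl3, Akap8l and Jdp2 had log2 ratios of -1.0, -0.90, -1.11 and -0.86. These 7 genes and the 3 histones also had ratios below 0 in microglia.

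The border macrophage genes were mostly a little lower in the dexamethasone members. Of 25 in the set measured, 2 were at least 1.5 times higher and 2 lower, beside 2.63% and 2.92% of all genes. Of the 28 with at least 20 UMIs, 19 had a ratio below 0, beside 2873 of all 5371 genes measured. Their median log2 ratio was -0.23 beside -0.023 over all genes. Lyve1 stood at 2135 CPM (2082 to 2189.7) and 3217 CPM (3156 to 3278), a log2 ratio of -0.59. Folr2, a folate receptor of resident macrophages, stood at 302 and 409.9 CPM, and the endocytic adaptor Dab2 at 1067 and 1342 CPM. F13a1 and Cd9, a tetraspanin, were the 2 that were higher, with Cd9 at 227 and 121 CPM, a log2 ratio of 0.90. Among the markers, Mrc1 had a log2 ratio of -0.29, Ms4a7 of -0.25, Stab1 of -0.10, Pf4 of 0.02, Igfbp3 of -0.27 and Colec12 of -0.52. The first 4 of these are genes of the rule. Members of the dexamethasone library also had the lower median macrophage share. Log2 ratios were therefore also taken at shares under 0.2%, of 0.2 to 0.3% and of 0.3% or more. In this order Lyve1 had -0.58, -0.63 and -0.49, and Colec12 had -0.45, -0.51 and -0.35. Igfbp3 had -0.061, -0.12 and -0.22, and the first 2 of its intervals included 0. The part of the macrophage share in the ratios of this paragraph was not tested further.

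Receptors and microglial genes showed few large ratios. Their counts stand beside 2.63% of all genes at least 1.5 times higher and 2.92% lower. Of 20 scavenger and endocytic receptors, Fcgr2b was at least 1.5 times higher and Lyve1 lower. Mertk, a receptor for dying cells, stood at 77.3 and 106 CPM, Fcgr1a, the high-affinity Fc receptor, at 196 and 267 CPM and Cd68, a lysosomal glycoprotein, at 395 and 334 CPM. Of 22 microglia identity genes none was at least 1.5 times higher and 1 was lower, Sparc, a matrix glycoprotein, at 575 and 951 CPM. Cst3, the protease inhibitor cystatin C, was close to that limit, at 10941 and 16036 CPM, a log2 ratio of -0.55. Sall1, at a log2 ratio of -0.013 (-0.29 to 0.26), and Csf1r, the receptor that macrophages need to survive, at -0.039, were level. None of 17 macrophage transcription factors passed 1.5 times, with Spi1, which encodes PU.1, at 229.7 and 259.5 CPM and Maf at 212 and 249 CPM.

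Of 11 chemokine and cytokine genes in the set measured, 4 were at least 1.5 times higher in the dexamethasone members and none lower, beside 2.63% and 2.92% of all genes. These 4 were found in few cells. Ccl2, which draws monocytes, stood at 70.6 and 31.7 CPM and was found in 52 and 25 cells. Ccl12, its relative, stood at 48.7 and 15.2 CPM in 34 and 18 cells, and Ccl4, another chemokine, at 44.5 and 14.95 CPM in 38 and 22 cells. The fourth, Ccl7, stood at 49.04 and 25.1 CPM. One cell held 33.3% of the Ccl4 UMIs for dexamethasone and 20.00% for control. When members were gated after thinning every cell to the same depth, the log2 ratios of Ccl2 and Ccl4 turned to -1.55 and -2.69, and the median of the list to -0.096. Of immediate-early genes, which dissociation also induces, 5 of 19 were at least 1.5 times higher and none lower, with Egr1 at 31.05 and 13.5 CPM, Fos at 119 and 75.1 CPM and Zfp36 at 38.1 and 17.6 CPM. With members gated on thinned cells the median of the immediate-early list did not change sign, unlike that of the chemokine list. The part of the immediate-early genes in the chemokine result was not tested.

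MHC class II genes rested on a handful of cells. RT1-Da stood at 50.5 and 17.04 CPM, but in 6 dexamethasone and 16 control members, and 1 cell held 60.8% of its UMIs in the dexamethasone library. Cd74, the invariant chain, was found in 18 and 31 members at 77.3 and 49.04 CPM. RT1-Ba, at 22.6 and 10.8 CPM, lost its difference without the cell with most UMIs, where its log2 ratio was -0.041. At a macrophage share of at least 0.3% the log2 ratio of RT1-Da was -0.028. With members gated on thinned cells RT1-Da stood at -1.02, Cd74 at -1.39 and the median of the list at -0.195. Of 9 genes in this list 4 were at least 1.5 times higher and none lower, beside 2.63% and 2.92% of all genes. Class II genes or the invariant chain were 3 of the 4. The class I gene RT1-A2, at 722 and 381 CPM, was the other, and B2m, the shared light chain, stood at 4920.3 and 4759 CPM. Genes of the RT1 family share reads with near-identical copies and are uncertain for that reason.

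Complement and iron genes included some of the more abundant members of the lists. All counts in this paragraph stand beside 2.63% of all genes at least 1.5 times higher and 2.92% lower. C1qa stood at 9548 and 7211 CPM, a log2 ratio of 0.41, and C1qb at 11193 and 9323 CPM, with 0.26. Their ratios in microglia were 0.46 and 0.30. Of 12 complement genes none was at least 1.5 times higher and 1 was lower, Itgam, a subunit of complement receptor 3, at 25.4 and 42.5 CPM. Ftl1, the ferritin light chain, was the higher one of 14 iron and haem genes and stood at 6531 and 3856 CPM, a log2 ratio of 0.76 (0.73 to 0.79), while Fth1, the heavy chain, stood at 4472 and 4061 CPM. Blvra, which reduces biliverdin, was the lower one, at 9.17 and 28.4 CPM. None of 30 lysosome and phagocytosis genes passed 1.5 times in either direction, with a median log2 ratio of -0.13. Of 22 genes of lipid handling 2 were higher and 2 lower, among them Cideb and Pla2g7, a lipase for platelet-activating factor, at 21.9 and 44.3 CPM.

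Glucocorticoid receptor targets were not higher as a group. Of 17 in the set measured 2 were at least 1.5 times higher and 3 lower, beside 2.63% and 2.92% of all genes. The median log2 ratio was -0.33 over the 20 with at least 20 UMIs. Cd163, which the rule kept low in members, is one of them. Fkbp5, a chaperone and a common readout of the receptor, stood at 15.2 and 26.6 CPM in the dexamethasone and control members. Tsc22d3, which encodes GILZ, stood at 21.9 and 28.4 CPM and Anxa1, an anti-inflammatory annexin, at 9.53 and 23.3 CPM. Zfp36, an RNA-binding protein that ends cytokine messages, and Dusp1, a phosphatase of MAP kinases, were higher, at 38.1 and 17.6 CPM and 26.1 and 14.1 CPM, and both also stand in the immediate-early list. In microglia the median was 0.21 over the 27 genes of the list with at least 20 UMIs there, so the gene sets differ. The receptor itself, Nr3c1, stood at 61.4 and 54.1 CPM, and none of 9 genes of steroid reception and metabolism passed 1.5 times. The time between the last dose and the tissue is not given in the sources used here.

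**Figure D5:**
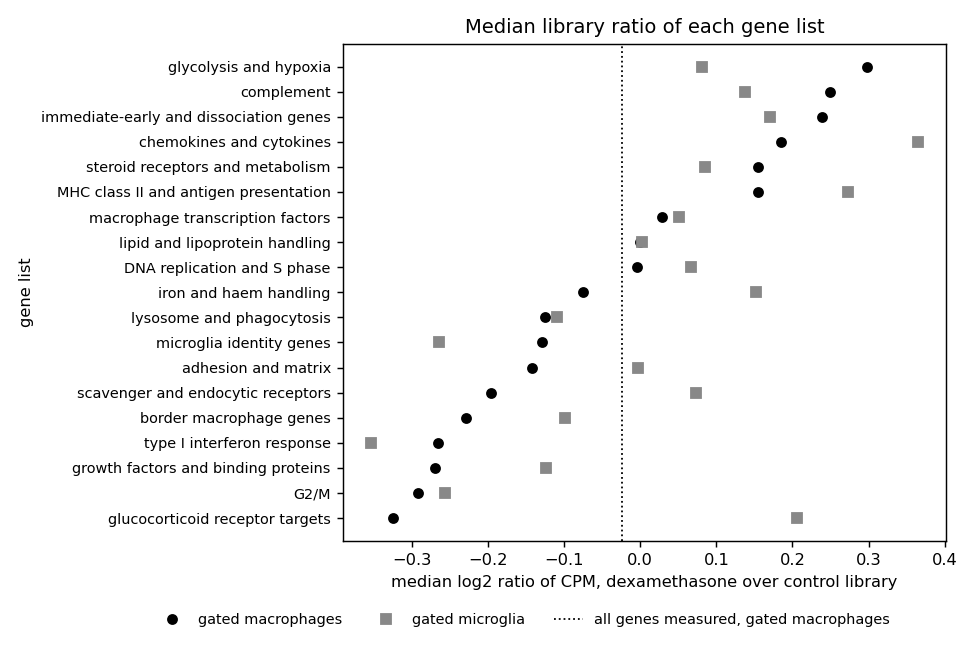
Median log2 ratio of CPM, dexamethasone over control library, of each gene list, markers of other cell types left out, in the gated macrophages (circles) and in microglia (squares); the dotted line is the median over all genes measured in the gated macrophages, -0.023. Among the lists drawn, glucocorticoid receptor targets have the lowest circle, at -0.33, with a square at 0.21. The chemokine and MHC circles rest on few cells. Each median is over the list genes with at least 20 UMIs in that class, so circle and square can rest on different genes.

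The counts below stand beside 2.63% of all genes at least 1.5 times higher and 2.92% lower. Of 9 growth factor and binding protein genes 2 were at least 1.5 times lower and none higher: Igfbp4, at 169 and 272 CPM, and Egfl7, a secreted vessel protein, at 65.6 and 101 CPM. Igf1, a growth factor that macrophages supply, was level at 548 and 527 CPM. Of 16 adhesion and matrix genes 3 were higher, F13a1, Cd9 and Spp1, and Sparc and Vcam1, an adhesion receptor, lower, and 1 cell held 41.9% of the Spp1 UMIs in the dexamethasone members. In the list of G2 and mitosis genes 6 of 20 were lower and none higher, with Mki67 at 135 and 180.0 CPM and Top2a, the topoisomerase of dividing cells, at 51.9 and 82.8 CPM. Without the members that held 3 or more UMIs of division genes the Mki67 log2 ratio was 0.13. Of 21 genes of DNA replication 1 was higher, the helicase subunit Mcm6 at 78.3 and 49.6 CPM, and 1 lower. Of 12 type I interferon genes none passed 1.5 times, and of 12 glycolysis genes 1 was higher, Pfkl, a phosphofructokinase, at 47.98 and 29.9 CPM.

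Markers of other cell types were looked up in the members. None of 17 matched genes of fibroblasts and meningeal cells reached 20 UMIs, and Dcn, Lum, Col1a1 and Col3a1 had none. The endothelial genes Kdr and Emcn and the mural genes Acta2 and Cspg4 also had none, and the summed level of the endothelial and mural list was 119.6 and 137 CPM in the dexamethasone and control members, mostly Esam and Tie1. Neuronal genes summed to 94.2 and 109.7 CPM, and 1 cell in each library held most of the Tubb3 UMIs (92.6% and 65.3%). The list of astroglia and oligodendroglia summed to 308.7 and 428 CPM, mostly Vim and Slc1a3, while Aqp4, Olig1, Olig2 and Sox10 had no UMI. All 7 genes of that list with at least 20 UMIs had a ratio below 0, beside 2873 of all 5371 genes measured. Dendritic cell genes summed to 576 and 714 CPM, mostly Bst2, which also stands in the interferon list, while Flt3, Clec9a and Ccr7 had none. Choroid plexus genes summed to 10.2 and 27.8 CPM, with Ttr at 0.71 and 11.06 CPM. Globin genes stood lower in the dexamethasone members: Hba-a1 at 94.2 and 189 CPM and Hbb-bs at 43.7 and 92.7 CPM, while in microglia they stood at 818 and 424 CPM and 457 and 223 CPM. The microglial share of cells with a UMI was lower for dexamethasone, at 52.8% and 75.5% for Hba-a1 and 29.3% and 47.5% for Hbb-bs. The globin genes are near-identical copies, and 4 of 5 erythroid genes in the set measured were at least 1.5 times lower, beside 2.92% of all genes. The part of these markers in the results above was not tested.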

How the data were processed

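Gene by cell counts of 2 libraries were used, 1 per group. The authors deposited whole-number UMI counts per gene and barcode, made with Cell Ranger 7.0.0 on Rnor_6.0 per the submitters' processing notes; other settings are not given in the sources used here. Counts of IDs that share a symbol were added (32623 IDs, 29987 symbols). Counts of each class were summed per library and scaled to CPM with exact Poisson intervals. Ratios have exact conditional binomial intervals and shares Clopper-Pearson intervals (95%, counting error only; a count of 0 stands at 3 counts). A gene was counted past 1.5 times. Cells were thinned to 3600 UMIs where stated. No doublets were removed; an alternative dropped the members with the highest Scrublet scores (scanpy 1.11.5). Scripts (Python 3.11.15, numpy 2.4.6, scipy 1.17.1, pandas 2.3.3) were tested on simulated data. The text names the rule's genes and the markers, the 12 highest and 12 lowest genes between libraries, the 12 highest and 8 lowest between classes and up to 4 genes per list by level and ratio. Other list genes were named after their values were seen. Of 722 list entries 27 had no match. The members and lists were chosen with earlier results of these data known.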

Additional observations from a re-analysis of the deposited data

Results flagged for a closer look

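The following genes had library ratios of opposite sign in the gated macrophages and in microglia; the difference between the classes was not tested. The values are log2 ratios of the dexamethasone over the control library, first in the gated macrophages and then in microglia. Among markers, Mrc1 had -0.29 and 0.20, Ms4a7 -0.25 and 0.42, and Colec12 -0.52 and 0.22; Mrc1 and Ms4a7 are genes of the gate, which bounds them from above in microglia. The chemokine receptor Ccr1 had -0.26 and 0.44. Anxa1 had -1.29 and 0.55, on 27 and 78 UMIs in the members. B2m had 0.048 and -0.014, both close to 0. The globin genes were Hba-a1 with -1.0 and 0.95, Hba-a2 with -1.08 and 0.92, Hbb-bs with -1.08 and 1.04, and Hbb with -1.60 and 0.38. The share of cells with a UMI did not go the same way as these microglial means. With every cell thinned to 3600 UMIs, Hba-a1 was found in 28.6% of dexamethasone and 47.8% of control members, and in 26.8% and 47.9% of microglia. Hba-a2, Hbb-bs and Hbb were also found in a smaller share of dexamethasone than of control microglia, at 14.02% and 28.03%, 13.95% and 25.2%, and 6.86% and 12.1%.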

How the results depend on the processing

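No paired analysis was possible because each group has 1 library. The difference in the members' share between the libraries, 1.51 percentage points, was -0.195 at a macrophage share of at least 0.3% and 2.95 at 0.1%; the cause was not tested. With at least 50 UMIs and no CPM minimum 267 genes were at least 1.5 times higher and 328 lower, and with at least 300 UMIs and 50 CPM 54 and 44, since other genes were tested. Of 446 list medians under the alternatives 416 stayed within the spread and 18 moved out of it. A further 12 changed sign, counted only for main medians at least 0.1 from 0. With members gated on thinned cells the medians were -0.096 for chemokines, -0.195 for MHC, 0.12 for neutrophil and monocyte and 0.060 for neuron genes. At a macrophage share of 0.3% they were -0.028 for MHC and -0.20 for dendritic genes. Others were 0.44 for neutrophil and monocyte genes at 0.1%, 0.090 for neuron genes without dividing members, 0.0081 for endothelial genes without members rich in microglial genes, 0.084 for endothelial and -0.40 for dendritic genes in thinned levels, and -0.016 for dendritic genes as a mean over cells.

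Of 2274 ratios of single genes between libraries 203 moved out of their main interval with no counted change of sign. A further 20 changed sign, counted only where the main interval lay clear of 0. With the thinned gate they were Ccl4 -2.69, Ccl2 -1.55, Cd74 -1.39, RT1-Da -1.02, RT1-Ba -0.98, Tpsb2 1.88 and Mcpt1l1 0.88. At a macrophage share of 0.3% they were RT1-Da -0.028, RT1-Ba -0.44 and Spp1 -2.35, and at 0.1% Ttr 1.63. Without dividing members they were Rpa2 0.019, Mki67 0.13 and Prc1 0.22. RT1-Ba was -0.79 among members with 0 UMIs of Cd163, Clec10a and Ccl24 and -0.041 without its top cell, and Cd74 was -0.0069 in thinned levels. Without their top cell Tpsb2 and Mcpt1l1 were both 0.82, and without the mast cell Tpsb2 was 0.82; the values above 0 for these 2 genes set a dexamethasone count of 0 at 3 counts and give no direction. F13a1 stayed between 1.84 and 2.23 under all 17 alternatives for single genes. Between classes 248 of 1200 ratios moved out of their main interval, and a further 9 changed sign, counted in the same way. Among members with 0 UMIs of the 3 genes, Cd163 over microglia was -0.13 in the dexamethasone and -0.14 in the control library, Clec10a over microglia -0.82 in control, Ms4a7 over Cd163-high cells -0.32 in control and Tuba1a -1.43 in dexamethasone. Ms4a7 over Cd163-high cells was -0.13 in control at 0.1%. At 0.3% Igfbp3 over Cd163-high cells was 0.18 in control, and Cd74 2.81 in dexamethasone and 0.012 in control. The alternatives without the top cell of each gene, without the mast cell and between classes were chosen after seeing the data. The cause of each change was not tested. Depth limits genes near 20 CPM, which most members hold at 0 UMIs.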
